A study of Mus musculus with 6 samples.

Results

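The lysosomal genes examined here number 56 of the 19938 genes measured in mouse liver. They comprise 35 listed genes, all measured, and 21 genes whose symbols start with Atp6v0 or Atp6v1, which encode subunits of the vacuolar proton pump (V-ATPase). The listed genes divide into 25 acid hydrolases, 3 activator proteins (Psap, Gm2a and Grn), 5 membrane proteins and 2 transcription factors. They were chosen by gene name and, for the pump, by symbol, with earlier results of these data known. The pump subunit gene Atp6v0c is not analysed here.

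The RNA came from livers of male C57BL/6 mice and was hybridised to 6 Affymetrix Mouse Gene 1.0 ST arrays, 3 for each of 2 diets. The mice of the first diet ate chow that held, per 100 g, 100 mg of lovastatin and 21 mg of ezetimibe (LE), drugs that block cholesterol synthesis and the intestinal uptake of cholesterol. Those of the other diet ate chow with 1% cholesterol (CH). All mice were given as 6 weeks old, with 1 week of acclimatization on chow; no genetic modification is given in the labels, and the chow group that they mention is not analysed here. The arrays are labelled as biological replicates but are not tied to single animals, so p-values measure the spread between arrays, which may be partly technical. The number of arrays limits the precision.

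Lysosomes are acidic organelles in which hydrolases break down proteins, glycans, sulfated sugars and lipids that arrive by endocytosis and autophagy. The proton pump acidifies them: its cytosolic V1 sector splits ATP and its membrane V0 sector carries protons across. In liver, lysosomes also free cholesterol from the esters of lipoproteins that hepatocytes have taken up. TFEB and TFE3, transcription factors of the MiT/TFE family, bind a palindromic element in the promoters of many lysosomal genes, known as CLEAR.

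Values are deposited intensities on a linear scale, given for arrays 1, 2 and 3 of each diet. Fold changes are LE over CH, taken from log2(intensity + 1), and carry standard errors (n = 3 arrays per diet), and adjusted p-values are limma's with Benjamini-Hochberg adjustment over all genes at a threshold of 0.05. Array medians lay between 158 and 163. Between arrays, Pearson's r was 0.9965 to 0.9978 within diets and 0.9898 to 0.9911 between them; it runs over genes, and genes are no independent replicates. Sqle, the squalene epoxidase of cholesterol synthesis, was 45.3-fold higher with LE (log2 5.50, SE 0.06, limma adjusted p = 5.36e-09). Of all genes 12.1% passed, 7.01% higher and 5.08% lower. Higher genes made up 58.0% of the calls, a share that was 47.7% after quantile normalisation and 48.4% where array medians were centred. By limma 4941 of the 19938 genes had an unadjusted p under 0.05, 2590 of them higher and 2351 lower.

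Some acid hydrolases were higher and some lower with LE, and in each group most genes did not pass the test. Of 28 hydrolases and activators, 8 were higher with LE, 3 were lower and 17 did not pass, so that 39.3% were called against 12.1% of all genes. Their median log2 fold change was 0.12, beside -0.0049 for all genes tested. Of 21 pump subunits, 3 were higher, 0 were lower and 18 did not pass, which is 14.3% called against the same 12.1%. Their median was 0.06, and by limma 0 of them were lower at an unadjusted p under 0.05 as well as by a cyberT-style test. The 5 membrane proteins and 2 factors held 1 higher gene, 0 lower and 6 not past the test, which is 14.3% called. In this group limma had 1 lower gene, Lamp1, at an unadjusted p under 0.05, and the cyberT-style test also had 1. The share over all genes depends on dim genes: without the dimmest 33.3%, 3097 of 13292 genes were called. Beside these stood 13 of 28 hydrolases and activators, 5 of 18 pump subunits and 3 of 7 membrane proteins and factors. No test of the difference between hydrolases and pump was made.

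Across all 56 members 27 had all LE arrays above all CH arrays, 10 had them all below and 19 overlapped. Of all genes 30.6% did not overlap in either direction, 15.9% with LE above and 14.7% with LE below. The largest changes were those of 3 genes: the pump subunit Atp6v0d2 (2.94-fold), the acid ceramidase Asah1 (2.51-fold) and the pump subunit Atp6v0a1 (1.89-fold). All other members lay between -0.31 and 0.53 on the log2 scale.

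**Figure D1:**
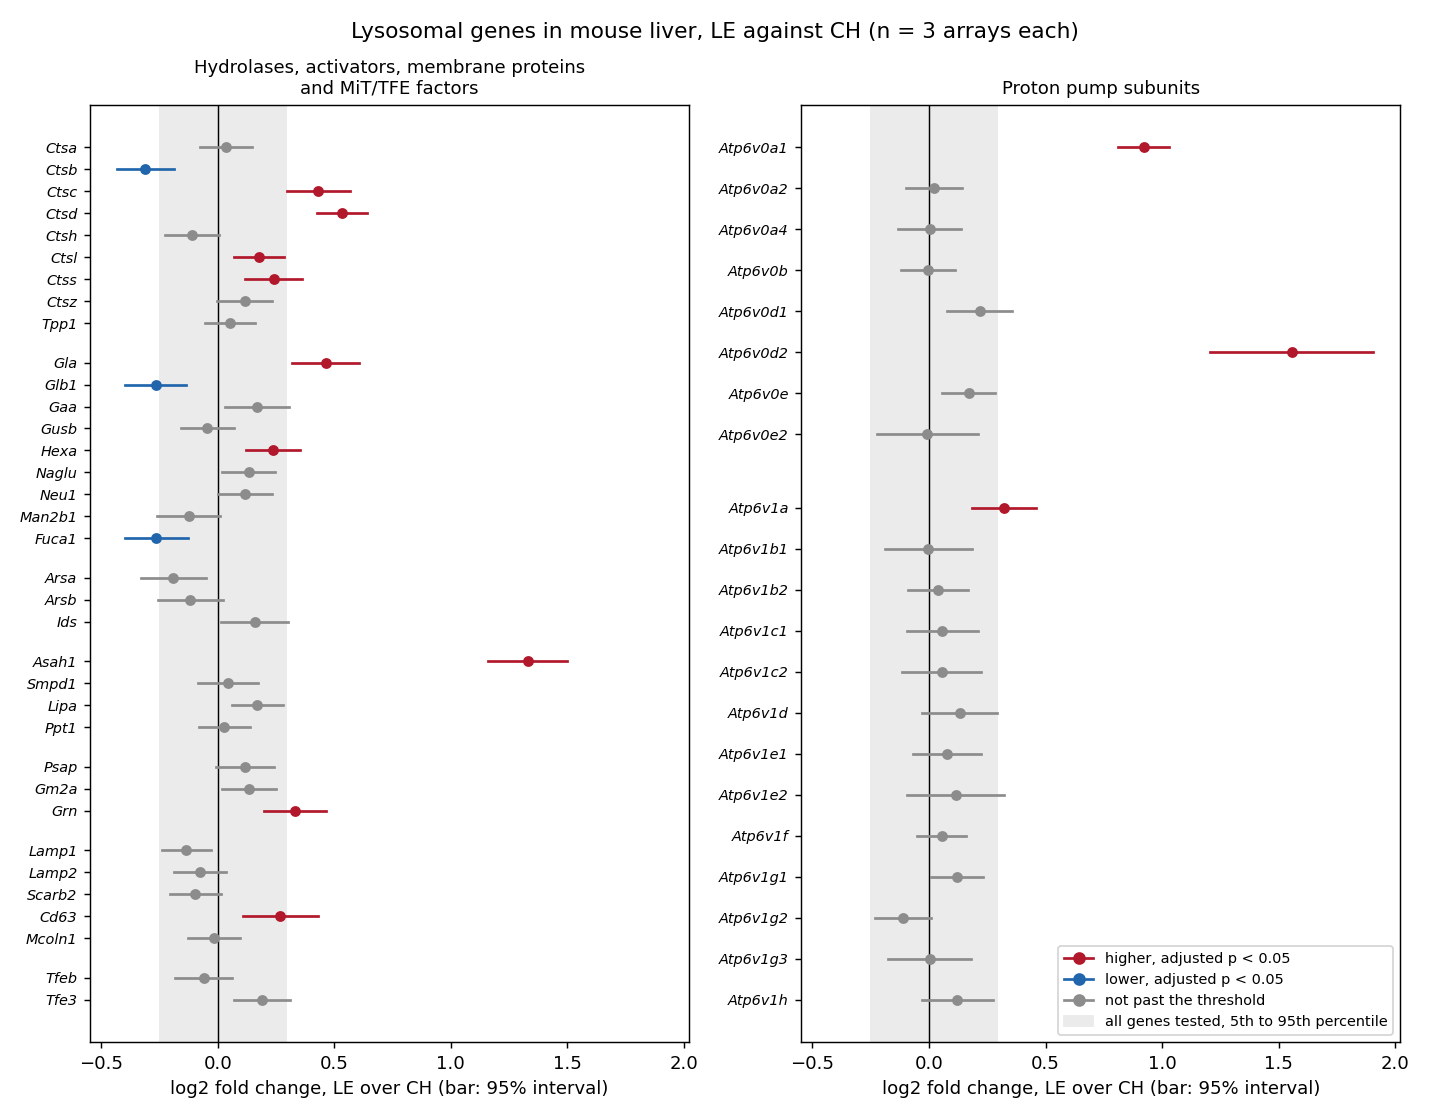
Log2 fold change, LE over CH, of the 56 members (points) with 95% intervals (bars), n = 3 arrays per diet, by class from top to bottom; the grey band spans the 5th to the 95th percentile of all genes (-0.25 to 0.30). Asah1 on the left and Atp6v0a1 and Atp6v0d2 on the right lie far outside the band, while most other subunits lie inside it.

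The promoters are shown because the CLEAR element is known from lysosomal genes. The core of CLEAR, TCACGTGA, was searched in the RefSeq promoter table (GRCm38.p6), from 250 bases before to 50 after each gene's start, on both strands, between which it reads the same. It holds within it the E-box CACGTG, so every CLEAR match is also an E-box match. Of the 47 members with an entry, 7 (14.9%) held the core, against 1.12% of all genes in the table and 1.52% of the genes tested. An E-box stood in 14 of the 47 (29.8%), against 8.09% of all genes in the table. The entries that are missing are those of Ctsb, Ctsh, Asah1, Atp6v0a2, Atp6v0d2, Atp6v1b2, Atp6v1c1, Atp6v1g1 and Atp6v1h. The 250 bases before the start of Ctsd (chr7:142387828-142388077, minus strand) and Gla (chrX:134601006-134601255, minus strand), the CLEAR-bearing genes with the largest changes, read as follows 5′ to 3′, with the core in capitals.
Ctsd: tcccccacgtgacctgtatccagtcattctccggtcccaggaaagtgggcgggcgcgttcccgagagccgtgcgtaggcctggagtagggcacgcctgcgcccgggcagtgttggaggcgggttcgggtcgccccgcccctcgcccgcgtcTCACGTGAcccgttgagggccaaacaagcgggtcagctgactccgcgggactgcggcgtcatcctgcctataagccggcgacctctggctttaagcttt
Gla: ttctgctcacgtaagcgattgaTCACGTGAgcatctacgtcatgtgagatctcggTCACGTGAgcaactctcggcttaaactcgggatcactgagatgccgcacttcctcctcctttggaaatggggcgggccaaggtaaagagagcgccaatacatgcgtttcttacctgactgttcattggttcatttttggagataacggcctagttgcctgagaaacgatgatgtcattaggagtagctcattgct

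The first base of the core stood 99 bases upstream of the Ctsd start, and the Gla promoter held the core at 228 and at 195 bases upstream. The other matches are shown as windows of 30 bases, again with the core in capitals. Ctsa holds a single copy on each side of its start. The windows come from Ctsa (chr2:164833757-164833786, plus strand), Mcoln1 (chr8:3500462-3500491, plus strand), Atp6v0d1 (chr8:105566050-105566079, minus strand), Atp6v0e (chr17:26676387-26676416, plus strand) and Atp6v1a (chr16:44139373-44139402, minus strand).
Ctsa: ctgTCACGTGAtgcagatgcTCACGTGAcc
Mcoln1: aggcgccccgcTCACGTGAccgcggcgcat
Atp6v0d1: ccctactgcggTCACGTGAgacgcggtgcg
Atp6v0e: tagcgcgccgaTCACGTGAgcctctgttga
Atp6v1a: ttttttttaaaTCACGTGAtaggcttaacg

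Among these 7 genes, Ctsd, Gla and Atp6v1a were higher with LE and 4 did not pass. Their log2 fold changes ran from -0.01 for Mcoln1 to 0.53 for Ctsd, with a median of 0.22. Of the 40 members whose entry lacks the core, 7 were higher, 2 were lower and 31 did not pass, with a median of 0.05. The 9 members without an entry include Atp6v0d2 and Asah1, which had the largest changes. Of these 9, 2 were higher, 1 was lower and 6 did not pass, with a median of 0.06. A match describes the letters of a promoter and not its use. The core of the sterol regulatory element, searched as TCACNCCAC on both strands, stood in 1 member, Ctsc, against 1.44% of all genes in the table. It is shown in capitals in a window of 30 bases (chr7:88277985-88278014, plus strand), 89 bases upstream of the start at its first base.
Ctsc: ctacatctcagTCACTCCACgcccccgtcc

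Among the 9 proteases, 4 were higher with LE, 1 was lower and 4 did not pass. Ctsd, the aspartic protease cathepsin D, had intensities of 6376, 6374 and 6496 on the LE arrays, against 4452, 4339 and 4518 on the CH arrays. Every LE array lay above every CH array, and the gene rose 1.45-fold (log2 0.53, SE 0.05, limma adjusted p = 0.000256). Ctsc, the dipeptidyl peptidase cathepsin C that activates granule serine proteases, read 2161, 2188 and 2411 with LE, against 1654, 1709.6 and 1642 with CH. The diets did not overlap, and Ctsc rose 1.35-fold (log2 0.43, SE 0.06, limma adjusted p = 0.00253).

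Ctsb, the cysteine protease cathepsin B, was lower. Its intensities were 4443, 4352 and 4675 with LE, against 5704, 5414 and 5574 with CH, and it fell by 0.31 on the log2 scale (SE 0.05, limma adjusted p = 0.00738). All 3 LE arrays lay below the lowest CH array. The calls of Ctsb, Ctsc and Ctsd held in all 14 alternatives run gene by gene.

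Ctss, the cathepsin S of antigen-presenting cells, had 656, 619 and 623 with LE, against 539, 515 and 552 with CH, and rose 1.18-fold (log2 0.24, SE 0.05, limma adjusted p = 0.0232). Ctsl, cathepsin L, had 6692, 6613 and 6827 with LE, against 5893, 6002 and 5904 with CH, and rose 1.13-fold (log2 0.18, SE 0.05, limma adjusted p = 0.0436). Neither gene's diets overlapped, but both calls hung on single arrays. Ctss did not pass without CH1, CH2, LE1 or LE2 (limma adjusted p 0.0592 to 0.0779; the alternatives together gave 0.00255 to 0.0779). Ctsl did not pass without any 1 array (0.0828 to 0.154) or after centring (0.0705), in a range of 0.000162 to 0.154. The serine carboxypeptidase Ctsa, the aminopeptidase Ctsh, the carboxypeptidase Ctsz and the tripeptidyl peptidase Tpp1 had log2 fold changes of 0.03, -0.11, 0.12 and 0.05, with limma adjusted p of 0.212 to 0.735. Ctsz passed in 2 alternatives and Ctsh in 1.

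The 9 glycosidases, which trim sugars from glycoproteins, glycolipids and glycosaminoglycans, held 2 higher genes, 2 lower ones and 5 that did not pass. Gla, the alpha-galactosidase, had intensities of 510.1, 468 and 527 with LE, against 358, 352 and 379 with CH. It rose 1.38-fold (log2 0.46, SE 0.06, limma adjusted p = 0.00238) without overlap, a call that held in all 14 alternatives. Hexa, the alpha subunit of beta-hexosaminidase, read 1313, 1336 and 1388 with LE, against 1150.4, 1109 and 1162 with CH. Its rise of 1.18-fold (log2 0.24, SE 0.05, limma adjusted p = 0.0192) did not pass without CH1, CH2 or LE2 (0.0614 to 0.069, and 0.000473 to 0.069 over all alternatives).

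Glb1, the beta-galactosidase, and Fuca1, the alpha-fucosidase, were lower. Glb1 had 532, 483 and 535 with LE, against 629, 609 and 623 with CH, and fell by 0.27 on the log2 scale (SE 0.06, limma adjusted p = 0.0212). Fuca1 had 1172, 1216 and 1198 with LE, against 1477, 1337 and 1495 with CH, and fell by 0.26 (SE 0.06, limma adjusted p = 0.025). No LE array reached the lowest CH array in either gene. Glb1 did not pass without CH1, CH3 or LE2 (0.0639 to 0.083, and 0.00165 to 0.083 over all alternatives), and Fuca1 passed without CH2 but not without any other single array (0.0671 to 0.0979, and 0.000268 to 0.0979). The alpha-glucosidase Gaa, which degrades glycogen, was at 0.17 (95% interval 0.03 to 0.30, limma adjusted p = 0.124) and passed in 2 alternatives. Naglu, Neu1, Gusb and Man2b1 lay between -0.12 and 0.13, with limma adjusted p of 0.146 to 0.654.

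Asah1, the acid ceramidase that splits ceramide into sphingosine and a fatty acid, changed more than any other hydrolase on the list. Its intensities were 2150.2, 2357 and 2419 with LE, against 959.6, 840.2 and 955 with CH. The lowest LE array stood far above the highest CH array, and the gene rose 2.51-fold (log2 1.33, SE 0.07, limma adjusted p = 1.92e-05). The log2 fold change ran from 1.27 to 1.38 over all alternatives. The other lipid hydrolases did not pass: Smpd1, the acid sphingomyelinase that makes ceramide, was at 0.04 (95% interval -0.08 to 0.17), and Ppt1, the palmitoyl-protein thioesterase, at 0.03 (-0.08 to 0.14).

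Lipa, the acid lipase that hydrolyses cholesteryl esters and triglycerides in lysosomes, missed the threshold at a limma adjusted p of 0.059. It read 6704, 6616 and 6894 with LE, against 6106, 5865 and 5992 with CH, a log2 fold change of 0.17 (95% interval 0.06 to 0.28). The diets did not overlap, and Lipa passed with an intensity trend and robust prior in limma, with the cyberT-style test, with a pseudocount of 16 or without the dimmest 33.3% of genes (adjusted p 0.000402 to 0.0442; the alternatives together reached 0.163). Of the 3 sulfatases, which remove sulfate from glycolipids and glycosaminoglycans, limma called 0, although 2 had an unadjusted p under 0.05. The arylsulfatases Arsa and Arsb were at -0.19 and -0.12, and the iduronate sulfatase Ids was at 0.16. Arsa passed as lower in 4 alternatives, among them the cyberT-style test and quantile normalisation (adjusted p = 0.0259 and 0.0246). All alternatives together gave 0.022 to 0.238. Arsb had a further probe set, at -0.16.

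Of the 3 activators, Grn alone passed. Grn encodes progranulin, whose lysosomal cleavage gives granulins. It read 3827, 3821 and 4239 with LE, against 3158, 3113 and 3166 with CH, and rose 1.26-fold (log2 0.33, SE 0.06, limma adjusted p = 0.00834). The diets did not overlap, and the call held in all 14 alternatives. Psap, the precursor of the saposins that help degrade sphingolipids, and Gm2a, the activator that presents a ganglioside to hexosaminidase, were at 0.12 and 0.13 with limma adjusted p of 0.228 and 0.147. Each of these passed in 2 alternatives, the intensity trend and the cyberT-style test.

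**Figure D2:**
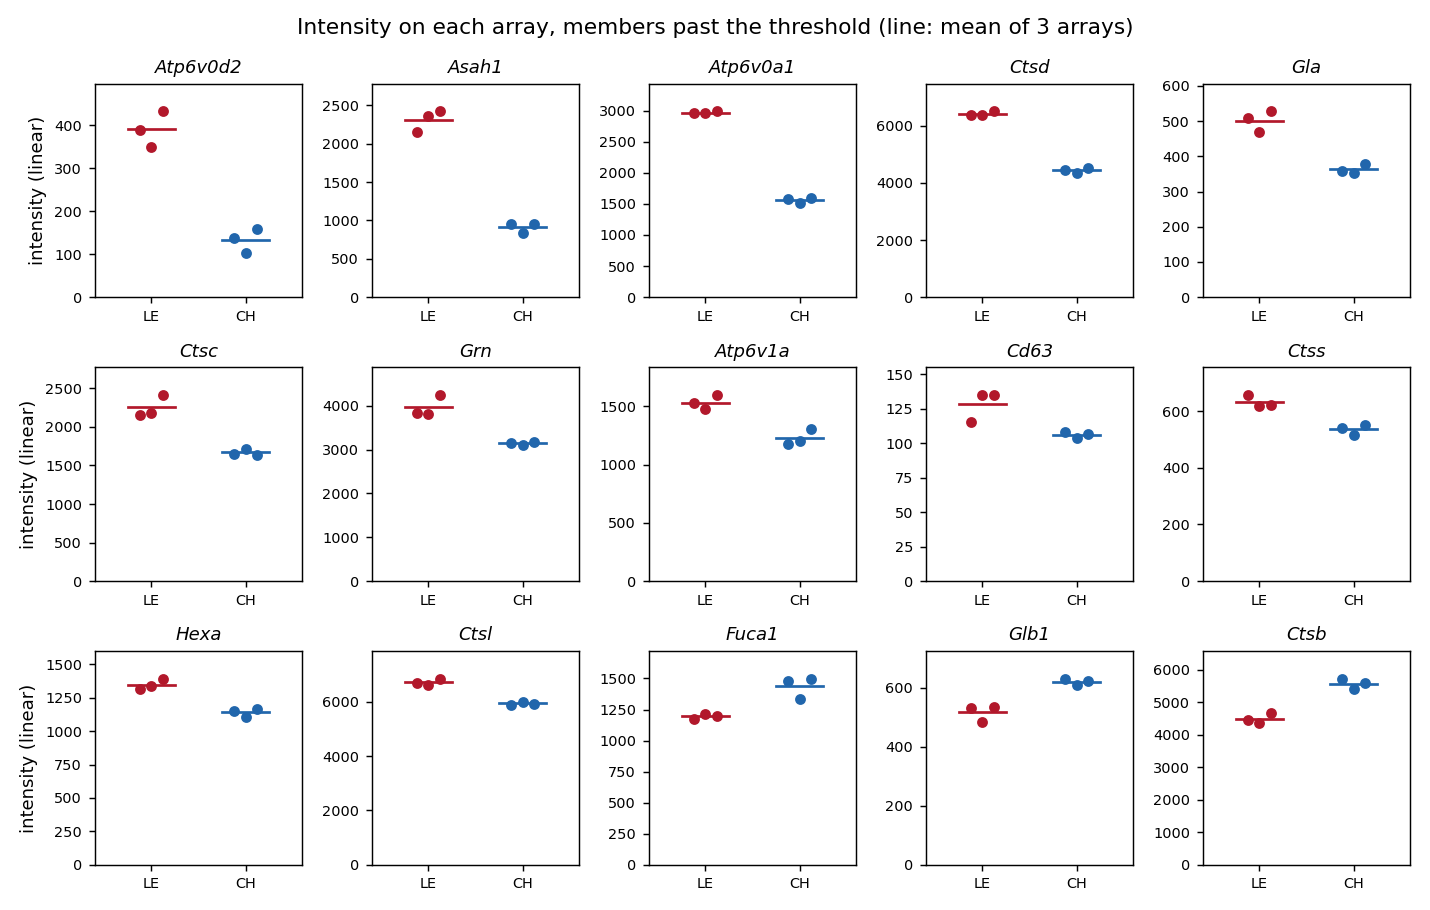
Linear intensity on each array (points) and the mean of 3 arrays (lines) for the 15 members past the threshold, with LE left of CH and every axis starting at 0. Atp6v0d2, Asah1 and Atp6v0a1 show the widest gaps, and Fuca1, Glb1 and Ctsb lie lower with LE.

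Of the 5 membrane proteins Cd63 alone passed. Lamp1 and Lamp2, the abundant glycoproteins of the lysosomal membrane, and Scarb2, the receptor that carries glucocerebrosidase there, lay below CH on all LE arrays, with log2 fold changes of -0.13, -0.07 and -0.09. None of the 3 passed (limma adjusted p 0.108 to 0.409). Lamp1 passed after quantile normalisation, with the intensity trend, with the cyberT-style test and without the dimmest 33.3% of genes (adjusted p 0.00134 to 0.0473; the alternatives together reached 0.257). Mcoln1, a cation channel of the lysosome, was at -0.01 (95% interval -0.13 to 0.10).

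Cd63, a tetraspanin of late endosomes, was the member of this group that rose, at 116, 135 and 135 with LE, against 108, 104 and 107 with CH. Every intensity of Cd63 lay below the array medians of 158 to 163. Its rise of 1.20-fold (log2 0.27, SE 0.07, limma adjusted p = 0.0436) did not pass after quantile normalisation (0.0778), after centring (0.0695) or without any array but LE1 (0.0981 to 0.143), in a range of 0.0112 to 0.143. Tfe3 missed the threshold at 0.0514, with 857, 852 and 852 on the LE arrays, against 772, 761 and 712 on the CH arrays (log2 0.19, 95% interval 0.07 to 0.31). Its diets did not overlap, and it passed in 4 alternatives (adjusted p 0.0078 to 0.161 over all of them). Tfeb was at -0.06 (95% interval -0.18 to 0.06) with overlapping diets. These are RNA levels, and the MiT/TFE factors are known to be controlled largely by where in the cell they reside.

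In the pump, the largest changes were those of 1 isoform each of the subunits d and a. Atp6v0d2, the d2 isoform of the V0 subunit d known from osteoclasts and macrophages, had intensities of 388, 350.3 and 432 with LE, against 137, 104 and 159.5 with CH. It rose 2.94-fold (log2 1.56, SE 0.15, limma adjusted p = 0.000449) without overlap. The CH intensities of this gene lay near or below the array medians of 158 to 163. Over all alternatives its log2 fold change ran from 1.39 to 1.69. Its spread between arrays was 0.15 with LE and 0.31 with CH (SD of log2 values, n = 3). The widely expressed isoform Atp6v0d1 read 2026, 1957 and 2195 with LE, against 1841, 1715 and 1757 with CH. It did not pass (log2 0.22, 95% interval 0.08 to 0.36, limma adjusted p = 0.0586), though it did in 5 alternatives (0.00198 to 0.157 over all of them).

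Atp6v0a1, the a1 isoform of the proton-carrying subunit a, had 2953, 2961 and 2985 with LE, against 1582, 1518 and 1599 with CH. The LE arrays were nearly equal and all above CH, a rise of 1.89-fold (log2 0.92, SE 0.05, limma adjusted p = 1.35e-05). Its other isoforms did not pass, and Atp6v0a2 and Atp6v0a4 overlapped between diets. Atp6v0a2 had 1069.7, 1042 and 1131 with LE, against 1084, 1063 and 1044 with CH (log2 0.02, 95% interval -0.10 to 0.14). A further probe set of Atp6v0a2 was at log2 -0.07. Atp6v0a4, known from kidney and inner ear, had 110.4, 116 and 120.4 with LE, against 119, 109 and 118 with CH (log2 0.00, 95% interval -0.13 to 0.14). Tcirg1, the a3 isoform, which lies outside the symbol rule, was at log2 0.05 (95% interval -0.05 to 0.16) without overlap. The calls of Atp6v0a1 and Atp6v0d2 held in all 14 alternatives. Differences between isoforms were not tested.

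The remaining V0 subunits did not pass. Atp6v0b, of the proteolipid ring, was at 0.00 on the log2 scale. The isoforms of the small subunit e differed in overlap: Atp6v0e had 1959.5, 1872 and 1995 with LE, against 1708, 1731 and 1738 with CH, without overlap (log2 0.17, limma adjusted p = 0.0648), and passed in 4 alternatives (0.00399 to 0.199 over all of them). Atp6v0e2 had 255, 239 and 244 with LE, against 237, 287 and 222 with CH, with overlap (log2 -0.01). In the V1 sector 1 of 13 subunits passed. Atp6v1a, the catalytic subunit A that splits ATP, had 1526, 1480.4 and 1596 with LE, against 1176, 1201 and 1304 with CH, and rose 1.25-fold (log2 0.32, SE 0.06, limma adjusted p = 0.0112) without overlap. It did not pass without CH1 (0.0509, and 6.68e-05 to 0.0509 over all alternatives). Its partner in the catalytic head, subunit B, did not pass in either isoform. Atp6v1b2 had 1299, 1325 and 1442 with LE, against 1326, 1312 and 1312 with CH (log2 0.04, 95% interval -0.09 to 0.17), and Atp6v1b1, which lies among the dimmest 33.3% of genes, had 110.3, 111 and 111 with LE, against 109, 125 and 100.0 with CH (log2 0.00). The other 10 V1 subunits, among them the stalk subunits D, E, F and G and the regulatory subunit H, lay between -0.11 and 0.13 (limma adjusted p 0.164 to 0.984). The isoforms of the stator subunits overlapped between diets, except Atp6v1g1 and Atp6v1g2. Atp6v1c1 had 662, 694 and 765 with LE, against 674, 660.2 and 703 with CH, and Atp6v1c2 had 88.9, 85.9 and 75.7 with LE, against 84.3, 75.9 and 80.6 with CH. For subunit E, Atp6v1e1 had 1510.0, 1482 and 1697 with LE, against 1454, 1489 and 1493 with CH, and Atp6v1e2 had 164, 144 and 160.0 with LE, against 132, 163 and 138 with CH. In subunit G, Atp6v1g1 lay above CH on all LE arrays (1098, 1073 and 1116 with LE, against 996, 995 and 1032 with CH) and Atp6v1g2 below (399, 376 and 399 with LE, against 426, 432 and 408 with CH), while Atp6v1g3 overlapped (55.2, 56.0 and 49.9 with LE, against 57.8, 48.8 and 54.2 with CH). These small shifts did not pass, at log2 0.12 for Atp6v1g1 and -0.11 for Atp6v1g2. Atp6v1c2 and Atp6v1g3, like Atp6v1b1, lie among the dimmest 33.3% of genes. Over all 18 subunits not past the test the 95% intervals stayed between -0.23 and 0.36.

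**Figure D3:**
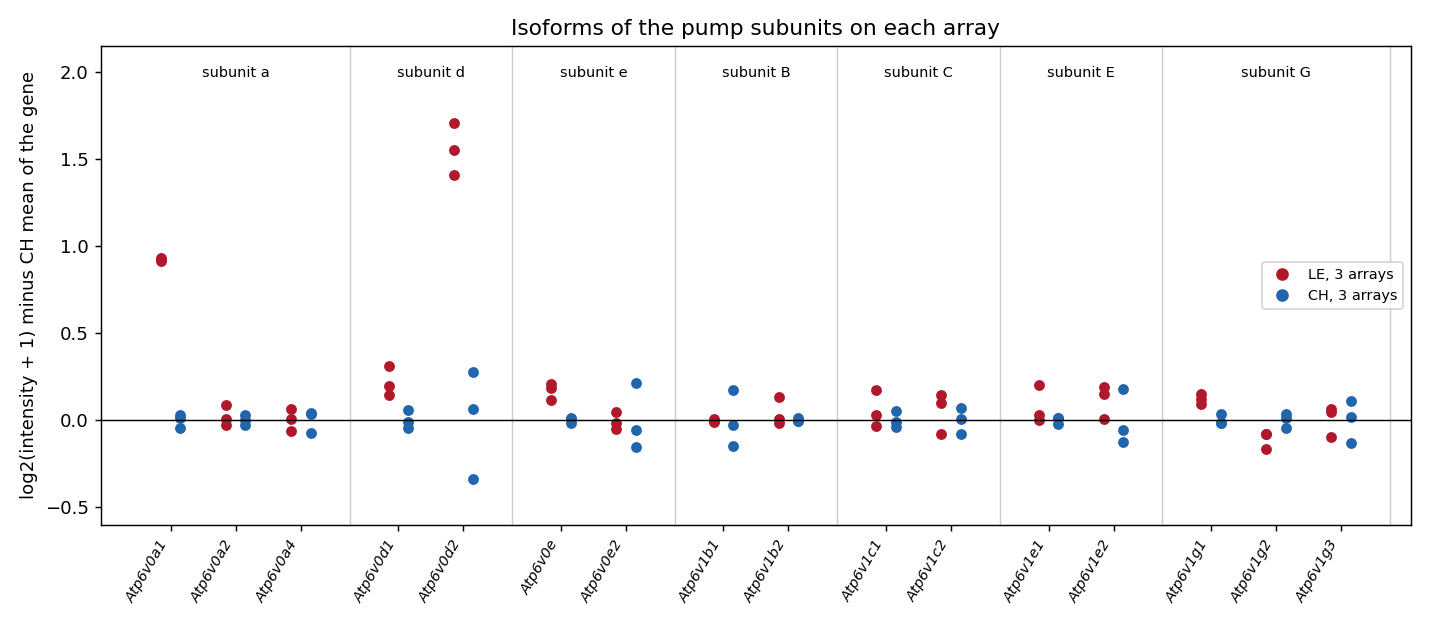
Log2(intensity + 1) on each array minus the CH mean of the same gene, for pump subunits with more than 1 measured isoform, with LE left of CH. Atp6v0a1 and Atp6v0d2 lie far above 0 with LE, while the LE arrays of every other isoform drawn stay below 0.5.

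Other genes of the organelle were taken from lists. Of 25 further hydrolases measured, 5 were higher, 1 lower and 19 not past the test, which is 24% called against 12.1% of all genes. Without CH1, CH2 or LE2, 3 were higher and 0 lower. Scpep1, a serine carboxypeptidase related to Ctsa, had 3346, 3419.6 and 3717 with LE, against 1023, 955 and 966 with CH, and rose 3.56-fold (log2 1.83, SE 0.06, limma adjusted p = 8.90e-07). Prcp, the prolylcarboxypeptidase, and Dpp7, a dipeptidyl peptidase, rose by log2 0.61 and 0.59 (limma adjusted p = 0.000189 and 0.000227). Scpep1, Prcp and Dpp7 passed in all 14 alternatives. Naaa, an amidase related to Asah1, rose 1.18-fold (limma adjusted p = 0.0249), a call lost without CH1, CH2, LE2 or LE3 (0.0639 to 0.103). Lgmn, the asparaginyl endopeptidase legumain, was at log2 0.19 (limma adjusted p = 0.0368), and its call was lost after centring (0.0753) and without any 1 array (0.073 to 0.117). The 1 lower gene was the acid phosphatase Acp5, at -0.23 (limma adjusted p = 0.0162), named after its value was seen; its call was lost without CH1, CH2 or LE2 (0.0554 to 0.0732).

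Of 15 accessory and assembly proteins of the pump, 2 were higher, 0 lower and 13 not past the test. That is 13.3% called, near the 12.1% of all genes. The higher genes were Rogdi and Atp6ap2. Rogdi, of the complex that joins V1 to V0, rose 1.30-fold (log2 0.38, SE 0.05, limma adjusted p = 0.00299). The pump-associated prorenin receptor Atp6ap2 rose 1.29-fold (log2 0.37, SE 0.07, limma adjusted p = 0.0111). By limma 1 further gene, Vma21, was lower at an unadjusted p under 0.05, and the cyberT-style test had 1 lower. Of 22 other membrane proteins 1 was higher (Ostm1, log2 0.23) and 1 lower (Slc17a5, -0.23) by limma, with 4 lower at an unadjusted p under 0.05. That is 9.1% called, against 12.1% of all genes. In the same list 5 were lower after quantile normalisation, 4 with the intensity trend and 3 with the cyberT-style test or without the dimmest 33.3% of genes, each beside 1 higher. Of 8 sorting proteins 1 was higher (Gnptab, log2 0.19) and 0 lower, which is 12.5% called against 12.1% of all genes. Limma had 1 of them lower at an unadjusted p under 0.05, and the cyberT-style test had 1 lower. Without 1 array the adjusted p reached at most 0.0761 for Ostm1, 0.121 for Slc17a5 and 0.132 for Gnptab.

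Of 15 genes of nutrient signalling at the lysosome, 1 was higher, 3 were lower and 11 did not pass. That is 26.7% called, against 12.1% of all genes. Without CH2, LE1 or LE2, 0 were higher and 2 lower. Fnip1 and Flcn, whose products form a complex that acts on the Rag GTPases and on TFE3, fell by 0.40 (SE 0.07, limma adjusted p = 0.00929) and by 0.38 (SE 0.05, limma adjusted p = 0.00168) on the log2 scale. Flcn read 462, 460.4 and 478 with LE, against 604, 621 and 598 with CH, without overlap, and both calls held in all 14 alternatives. Lamtor1 and Lamtor2, of the Ragulator scaffold, were at 0.31 and -0.21, and both calls were lost without single arrays, at up to 0.0657 and 0.116. Neither of the other MiT family genes, Mitf and Tfec, passed by limma, at an unadjusted p under 0.05 or by the cyberT-style test.

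Most markers of macrophages and Kupffer cells, which are rich in lysosomes, were higher with LE. Of 19 markers 14 were higher with LE, 0 lower and 5 not past the test. That is 73.7% called, against 12.1% of all genes. Leaving out single arrays gave 10 (without LE2) to 13 (without CH1 or LE1) higher and 0 lower. The call of Clec4f was lost without any 1 array (limma adjusted p 0.0616 to 0.104). Ptprc, Tyrobp and Vsig4 lost theirs without some arrays (up to 0.123, 0.0563 and 0.0519). The 5 not past were Aif1, Cd5l, Fcgr1, Itgam and Mpeg1, at log2 -0.17 to 0.21. The median log2 fold change of the markers was 0.33, beside 0.12 for the hydrolases and activators. By limma 1 marker, Mpeg1, was lower at an unadjusted p under 0.05, and 1 was lower by the cyberT-style test. Mpeg1 passed as lower in 4 alternatives (adjusted p 0.0194 to 0.274 over all of them). The summed intensity of the 19 markers was 16934 to 17320 on the LE arrays, against 13300 to 14101 on the CH arrays, and no marker was at 0. The largest rises were those of Cd163, a scavenger receptor for haemoglobin complexes, by 0.50 (SE 0.07, limma adjusted p = 0.00251), and Lyz2, a lysozyme, by 0.48 (SE 0.05, limma adjusted p = 0.000847). In whole liver RNA, more cells of a type and more RNA per cell cannot be told apart. The part of these cells in the changes of the lysosomal genes was not tested.

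Of 9 hepatocyte markers limma called 0, with 1 at an unadjusted p under 0.05 and 2 higher by the cyberT-style test, and with the intensity trend 2 were higher and 1 lower. The albumin gene Alb was at -0.01 (SE 0.05). Of 9 markers of sinusoidal endothelial cells limma called 0, and the median was -0.07. By limma 4 were lower at an unadjusted p under 0.05, as were 2351 of all 19938 genes. By the cyberT-style test 1 was lower, and after quantile normalisation or with the intensity trend 3 were lower, which were Clec4g, Fcgr2b and Stab2 in both. Of 7 stellate cell markers 1 was lower, which is 14.3% called against 12.1% of all genes. This was the collagen gene Col3a1 (log2 -0.19), and its call was lost without any 1 array (limma adjusted p 0.0669 to 0.147). Among 4 cholangiocyte, 6 lymphocyte and 6 neutrophil markers limma and the cyberT-style test called 0, with 0, 2 and 0 at an unadjusted p under 0.05.

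**Figure D4:**
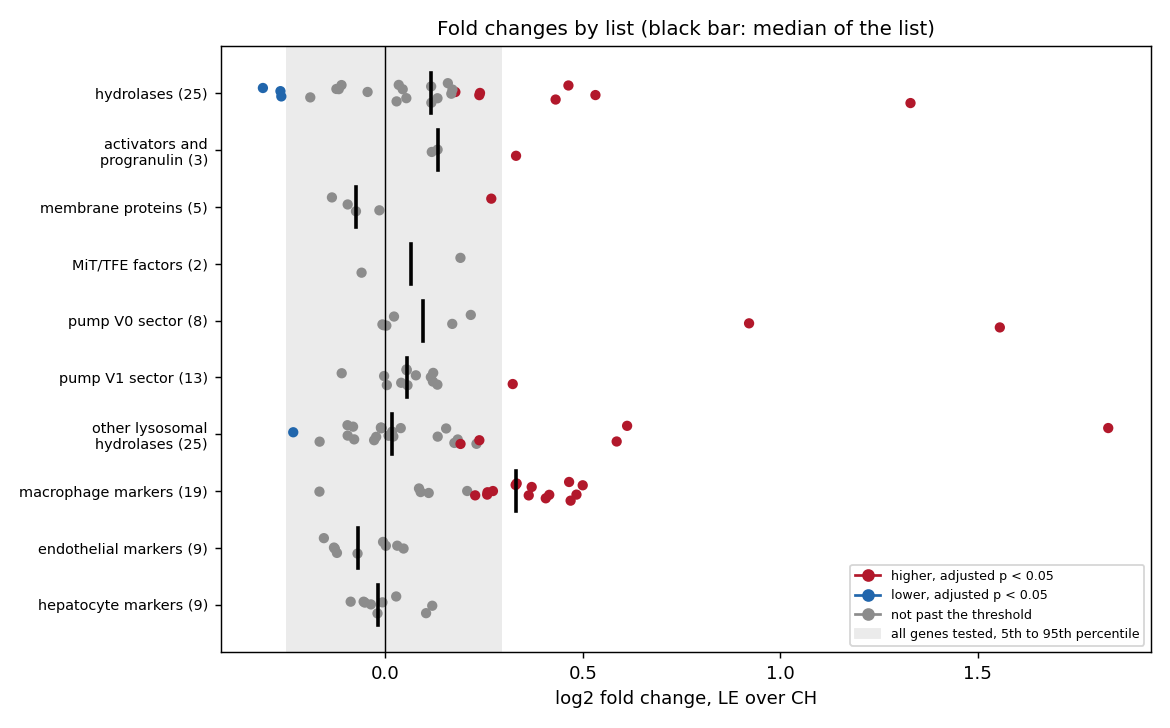
Log2 fold change, LE over CH, of single genes (points) by list, with the number of genes in parentheses, the median of each list as a black bar and the 5th to the 95th percentile of all genes as a grey band. The hydrolases spread to both sides of 0, the macrophage markers lie mostly to the right, and the medians of membrane proteins, endothelial and hepatocyte markers lie at or below 0.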

How the data were processed

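RNA was extracted with Trizol and hybridised to Affymetrix arrays, per the labels' protocols. The deposited values are linear intensities of 35556 probe sets. How background was corrected, how arrays were normalised and which build was used is not stated in these sources; the series' design text names Partek Genomics Suite and cyberT. The platform annotation gave 21789 of these a single symbol, 1621 more than 1 and 12146 none. Gene identifiers of 21698 matched a RefSeq table, and 0 symbols were updated. Per gene, the single-gene probe set with the highest mean log2(intensity + 1) was tested, which gave 19938 genes; 4 members had more than 1. At most 28 values were identical between 2 arrays.

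The diets were compared over all genes with limma 3.58.1 (lmFit, eBayes) in R 4.3.3, two-sided. Other steps used Python 3.11.15, numpy 2.4.6, pandas 2.3.3, scipy 1.17.1 and matplotlib 3.10.9. In simulated data with 200 of 19938 genes changed, the fit found 28% of the genes shifted by 0.25 (log2), 94% at 0.5 and 100% at 1 and at 2, and made 8 false calls. With 3 arrays a side, the smallest exact permutation p is 0.1, so none was used. The members, lists and tests were chosen with earlier results of these data known. All members are named; of each further list, up to 4 genes past the threshold with the largest change are, and Acp5, Lgmn, Tcirg1, Vma21 and the single marker genes were named after their values were seen. Protein sequences of the pump isoforms were not used here.

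The alternatives were a replicate block, quantile normalisation, centring, dropping the dimmest 33.3% of genes, averaging each gene's probe sets, an intensity trend with a robust prior, a cyberT-style test with regularised variances (window of 101 genes, prior weight 10, both set here), a pseudocount of 16 in place of 1, every probe set (counts only) and leaving out each array.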

Additional observations from a re-analysis of the deposited data

How the results depend on the processing

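Of 28 hydrolases and activators, 11 were called in the reported comparison, 18 with an intensity trend and robust prior and 17 with the cyberT-style test. Leaving out single arrays gave 6 to 9, with 6 without CH1 or LE2. Of 21 pump subunits, 3 were called in the reported comparison and 5 with the intensity trend, the cyberT-style test, a pseudocount of 16 or without the dimmest 33.3% of genes, and leaving out single arrays gave 2 to 3. Without the dimmest 33.3% of genes, 18 of the subunits were tested. Of the 7 membrane proteins and factors, 1 was called in the reported comparison, 3 with the intensity trend, with the cyberT-style test or without the dimmest 33.3% of genes, 2 with a pseudocount of 16 and 0 after centring. Leaving out single arrays gave 0 to 1, and after quantile normalisation the 1 call was Lamp1, lower, in place of Cd63. Over all genes, 2410 calls became 1489 to 1868 without single arrays, the fewest without CH1 (1489) and LE2 (1514), and 3521 with the intensity trend. Apart from the replicate block, given below, the other settings kept these counts within 1.5 times. Of 15 called members, 8 kept their call in all alternatives and no called member changed direction. Of 41 not called, 30 were called in none. Median fold changes over all settings were 0.09 to 0.13 for hydrolases and activators, 0.03 to 0.10 for the pump and -0.10 to -0.02 for membrane proteins and factors. Arrays with the same replicate number did not deviate together (correlations of -0.02, -0.10 and 0.16 for numbers 1, 2 and 3), so the numbers are not taken as pairs; with the replicate block 7 hydrolases and activators, 0 membrane proteins and factors, 3 pump subunits and 1688 genes were called. The cause was not tested. With 3 arrays per diet the smaller shifts are hard to call, and the median absolute change of the members was 0.12. In simulated data 28% of changes of 0.25 on the log2 scale were found. Only 200 genes were changed there, against 2410 called here, which makes the adjustment stricter. That share is therefore not the sensitivity in these data.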
